A study of Gallus gallus with 6 samples.

Results

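Transcripts of 9 endothelial genes and of VEGFA, the growth factor that acts on endothelial cells, were compared between the soleus, a leg muscle, and the pectoralis major, the breast muscle, of broiler chickens (Gallus gallus). The members were taken by symbol from the deposited expression table: KDR, FLT1, PECAM1, CLDN5, EGFL7, VWF, CDH5, TEK, TIE1 and VEGFA. All 10 were among the 18239 genes of the table and among the 9616 genes tested. The muscles were taken from both body sides of animals 180 days old, right after slaughter, and the series describes them as very unlike in muscle fibre type. There were 3 libraries of soleus and 3 of pectoralis major, with no treatment and no genotype contrast. All birds are labelled broilers. Whether each library stands for its own bird is not stated in the labels, and p-values therefore reflect the spread between these samples alone, which may be technical. Each library was made from whole muscle tissue, so fewer cells of a type and less RNA per cell cannot be told apart.

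Endothelial cells line all blood vessels, and in muscle they form the capillary bed that runs along the fibres and supplies them with oxygen. VEGFA is secreted by muscle fibres and other cells and binds the receptor tyrosine kinases KDR (VEGF receptor 2), which carries the main growth signal, and FLT1 (VEGF receptor 1), which binds VEGFA tightly and can act as a decoy. A separate pair of receptor kinases, TEK (also called TIE2) and TIE1, responds to angiopoietins and bears on vessel stability. CDH5, PECAM1 and CLDN5 hold neighbouring endothelial cells together, and EGFL7 and VWF are secreted. In mammals, slow oxidative muscle is known for a denser capillary bed than fast glycolytic muscle.

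Expression was given as FPKM, fragments per kilobase of gene, scaled to a common total of fragments per library. Soleus libraries held 38534335 to 39079981 fragments, and pectoralis major libraries 36309597 to 37123092. These totals were worked out from the FPKM values of many genes, which within a gene are whole multiples of 1 fragment. Each member rested on 296 to 24581 fragments in every library, and the lowest FPKM of any member was 3.38, so the filter on low values, which kept genes at 1 FPKM or more in 3 or more of the 6 libraries, removed no member. The mitochondrially encoded genes took 31.38% to 38.04% of all FPKM in soleus and 13.11% to 15.79% in pectoralis major. These are shares of summed FPKM, not of fragments. FPKM is scaled to the fragment total, so a larger fragment share of these genes lowers the values of all others. The tissue markers fitted skeletal muscle, with ACTA1, skeletal actin, at 38242.2 ± 3220.9 FPKM in soleus, against 39447.9 ± 6474.5 in pectoralis major (SD, n = 3 each). The slow light chain MYL3 had 4688.0 ± 1218.3 and 0.116 ± 0.116 FPKM, the slow troponin TNNI1 2962.1 ± 548.7 and 1.43 ± 1.03, the fast troponin TNNI2 4572.0 ± 516.2 and 11936.9 ± 474.4, and the fast heavy chain MYH1E 4.31 ± 2.96 and 4822.9 ± 73.4. Of the 10 fibre genes tested, 5 were higher in soleus and 2 lower.

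All 10 members were higher in soleus, and for all 10 every soleus library lay above every pectoralis major library. As background, 57.3% of all genes tested passed the test, 40.0% as higher in soleus and 17.4% as lower, for 45.0% every soleus library lay above every pectoralis major library, and for 19.9% every one lay below. Differences are on the log2(FPKM + 1) scale, soleus minus pectoralis major, with the standard error and the adjusted p of limma (two-sided, Benjamini-Hochberg over the 9616 genes, threshold 0.05). They ran from 0.54 for TEK to 1.70 for VEGFA, with a member median of 1.01, where the median of all genes tested was 0.26. A log2 difference of at least 1 was reached by 5 members (VEGFA, EGFL7, CLDN5, KDR and PECAM1), against 9.44% of all genes tested that were called higher by as much. Under median-ratio scaling, which sets the libraries level on the typical gene and moves the median of all genes to -0.04, 7 of the 10 members passed, where 21.1% of all genes were called higher. The 3 that did not were TEK (difference 0.19, adjusted p = 0.205), VWF (0.35, adjusted p = 0.131) and CDH5 (0.41, adjusted p = 0.069), and the member median was 0.64. All 10 passed under quantile normalization (23.3% of all genes called higher), with library totals that omit mitochondrially encoded genes (52.4%) and with libraries of the same number paired (43.8%). That pairing was taken from these same data, as the labels do not state it. With totals that omit mitochondrially encoded genes the member median was 1.23.

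**Figure D1:**
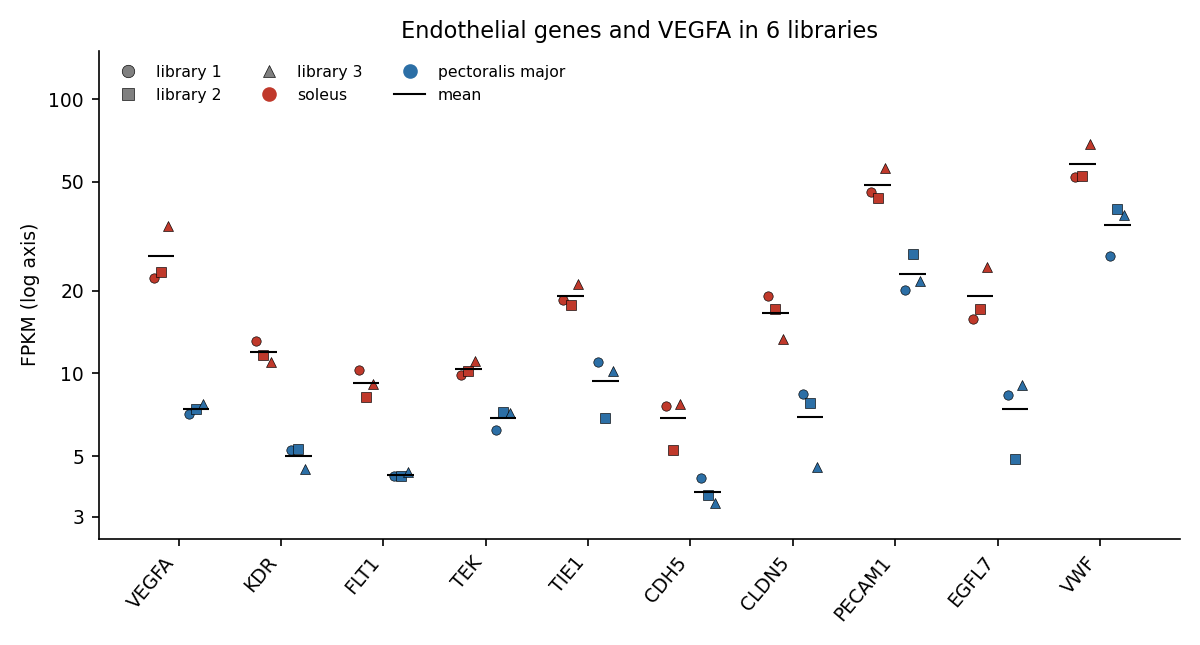
FPKM of each member (log axis) in the 3 soleus libraries (red) and the 3 pectoralis major libraries (blue), with the library number as the marker shape and the mean as a bar. For all 10 genes the lowest soleus library is above the highest pectoralis major library, by a factor of 1.27 for CDH5 up to 2.89 for VEGFA.

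VEGFA (gene number 395909) stood at 22.3, 23.4 and 34.5 FPKM in soleus (libraries 1, 2 and 3, in this order throughout), against 7.13, 7.39 and 7.72 in pectoralis major. The pectoralis major libraries lay close together and all soleus libraries far above them, with library 3 the highest. The means were 26.8 ± 6.75 and 7.41 ± 0.295 FPKM, a ratio of 3.61, and the log2 difference was 1.70 ± 0.17 (SE, limma adjusted p = 0.000121). Of all genes tested, 2.72% had a larger difference. Without soleus library 3 the difference was 1.5, the lowest with any library left out, and under median-ratio scaling it was 1.34 (adjusted p = 0.000617).

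The VEGFA receptor KDR (gene number 395323) had 13.1, 11.7 and 11 FPKM in soleus, against 5.25, 5.29 and 4.49 in pectoralis major. Its spread was small in both muscles, and the lowest soleus library was 2.08 times the highest pectoralis major library. The log2 difference was 1.11 ± 0.13 (SE, limma adjusted p = 0.000248). FLT1 (gene number 374100) had 10.3, 8.22 and 9.13 FPKM in soleus, against 4.23, 4.23 and 4.36 in pectoralis major, a log2 difference of 0.95 ± 0.13 (SE, limma adjusted p = 0.000507). The pectoralis major libraries were nearly alike for FLT1, with a coefficient of variation of 1.77%. For neither receptor did library 3, the highest soleus library for VEGFA, stand above the other soleus libraries.

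Of the receptor kinases TEK and TIE1, TIE1 (gene number 424562) had 18.5, 17.7 and 21.1 FPKM in soleus, against 11, 6.90 and 10.2 in pectoralis major. Pectoralis major library 2 was low for this gene, and the log2 difference was 0.98 ± 0.18 (SE, limma adjusted p = 0.00201). TEK (gene number 427368) had 9.88, 10.2 and 11.1 FPKM in soleus, against 6.20, 7.23 and 7.16 in pectoralis major. The groups did not overlap, but the gap was narrower than for TIE1, and the log2 difference of 0.54 ± 0.13 (SE, limma adjusted p = 0.00672) was the smallest of the members. A larger difference than that of TEK was seen for 30.0% of all genes tested.

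Of the junction genes, CLDN5 (gene number 374028), a claudin that seals endothelial tight junctions, had 19.2, 17.2 and 13.4 FPKM in soleus, against 8.43, 7.77 and 4.55 in pectoralis major. Library 3 was the lowest in both muscles, and the log2 difference was 1.18 ± 0.22 (SE, limma adjusted p = 0.00248). PECAM1 (gene number 771243), an adhesion molecule of endothelial cells, platelets and leukocytes, had 45.8, 43.6 and 56.3 FPKM in soleus, against 20.1, 27.3 and 21.7 in pectoralis major. All soleus libraries were well above the others, and the log2 difference was 1.05 ± 0.16 (SE, limma adjusted p = 0.00088).

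CDH5 (gene number 374068), VE-cadherin, the adhesion protein of endothelial adherens junctions, had 7.62, 5.26 and 7.75 FPKM in soleus, against 4.15, 3.59 and 3.38 in pectoralis major. Soleus library 2 came near the pectoralis major libraries without reaching them. The log2 difference was 0.73 ± 0.16 (SE, limma adjusted p = 0.0056). The FPKM of CDH5 was computed over a gene length of 15459 bases, as recovered from the FPKM steps, the longest of the members. Lengths of the members began at 1591 bases for VEGFA. The level of CDH5 per length depends on its gene length, and no other length was compared.

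Of the secreted proteins, EGFL7 (gene number 417137), which endothelial cells release into their matrix, had 15.8, 17.1 and 24.4 FPKM in soleus, against 8.34, 4.88 and 9.10 in pectoralis major. It varied most between libraries of a muscle apart from VEGFA in soleus, yet the groups stayed apart and the log2 difference was 1.27 ± 0.24 (SE, limma adjusted p = 0.00236). VWF (gene number 419031), the carrier and adhesion protein of blood clotting stored in endothelial cells, had 52.2, 52.6 and 68.8 FPKM in soleus, against 26.9, 39.8 and 37.7 in pectoralis major. VWF was the most abundant member per length in both muscles, with a log2 difference of 0.72 ± 0.18 (SE, limma adjusted p = 0.00927).

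**Figure D2:**
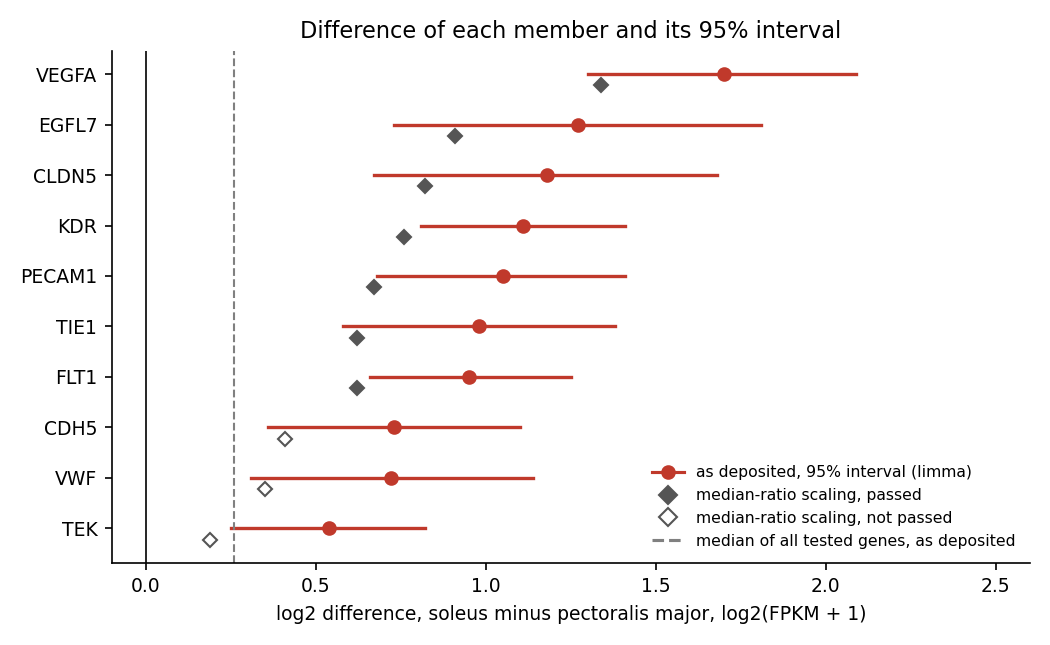
Log2 difference of each member, soleus minus pectoralis major in log2(FPKM + 1), as deposited (red, with the 95% interval of limma) and under median-ratio scaling (diamonds, filled where the test was passed). VEGFA is at 1.70 (interval 1.30 to 2.09) and TEK at 0.54 (0.25 to 0.82), and the open diamonds are those of CDH5, VWF and TEK.

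The order of the levels was partly shared between muscles. In soleus the order of mean FPKM was VWF, PECAM1, VEGFA, EGFL7, TIE1, CLDN5, KDR, TEK, FLT1 and CDH5. In pectoralis major it was VWF, PECAM1, TIE1, EGFL7, VEGFA, CLDN5, TEK, KDR, FLT1 and CDH5. The libraries of VWF and PECAM1 overlapped in each muscle, while all libraries of PECAM1 lay above those of the member that came next. In pectoralis major, where VEGFA was among the members of middle level, its libraries overlapped those of EGFL7, TIE1, CLDN5 and TEK, and in soleus they overlapped those of EGFL7.

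The members also differed in how their libraries were ordered within a muscle. Soleus library 3 was the highest of its muscle for 7 members (PECAM1, EGFL7, VWF, CDH5, TEK, TIE1 and VEGFA) and the lowest for KDR and CLDN5. It was also the highest for some listed non-members, such as LPL and SPARC, and not for others, such as CAV1 and NRP1. How many of all genes tested were highest in soleus library 3 was not counted, so the pattern is not shown to be particular to the members. This library also had the highest share of summed FPKM in mitochondrially encoded genes. As FPKM is scaled to the fragment total, a larger fragment share of these genes lowers the FPKM of all others. The part of that share in these values was not tested. In pectoralis major no library led in this way, each being the highest for 3 or 4 members. When libraries with the same number were set against each other, all 30 differences were above 0. Any pairing would give this, as the groups did not overlap for any member. The smallest difference was that of VWF in pair 2 (0.39) and the largest that of VEGFA in pair 3 (2.03).

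Ratios between members are the same under any scaling by 1 factor per library, and 7 were compared with an exact two-sided permutation test, whose smallest possible p for 3 against 3 libraries is 0.1. The groups did not overlap for 3 of them, each with an exact p of 0.1 (0.233 after Benjamini-Hochberg adjustment over the 7). VEGFA over FLT1 was 2.16, 2.85 and 3.78 in soleus and 1.69, 1.75 and 1.77 in pectoralis major. TEK over KDR was lower in soleus, with 0.878 ± 0.129 against 1.38 ± 0.209, and so was VWF over PECAM1, with 1.19 ± 0.0435 against 1.51 ± 0.205 (SD, n = 3 each). VEGFA over KDR was 1.70, 2.00 and 3.13 in soleus and 1.36, 1.40 and 1.72 in pectoralis major, which overlapped (exact permutation p = 0.2). The ratio of the VEGF receptors, KDR over FLT1, was 1.30 ± 0.113 in soleus and 1.17 ± 0.126 in pectoralis major and overlapped (exact permutation p = 0.4, n = 3 each), as did TEK over TIE1 (exact permutation p = 0.2) and KDR over PECAM1 (exact permutation p = 0.4). Between libraries of the same number, VEGFA over KDR and KDR over FLT1 were higher in soleus in 3 of 3 pairs and TEK over TIE1 was lower in 3 of 3, while KDR over PECAM1 was higher in 2 of 3. An exact sign-flip test on the pairs, added after the values were seen, gave p = 0.25 for each ratio of 1 sign in all pairs, the smallest that 3 pairs allow.

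The summed FPKM of the 9 endothelial members, a description with no test, was 192.4, 183.5 and 223.0 in soleus and 94.5, 107.1 and 102.6 in pectoralis major. VEGFA per unit of this sum was 0.116, 0.128 and 0.155 in soleus and 0.0755, 0.069 and 0.0752 in pectoralis major, so it was higher in each soleus library. TEK made up 5.23 ± 0.304% of the sum in soleus and 6.76 ± 0.209% in pectoralis major without overlap, while the shares of the other 8 endothelial members overlapped.

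**Figure D3:**
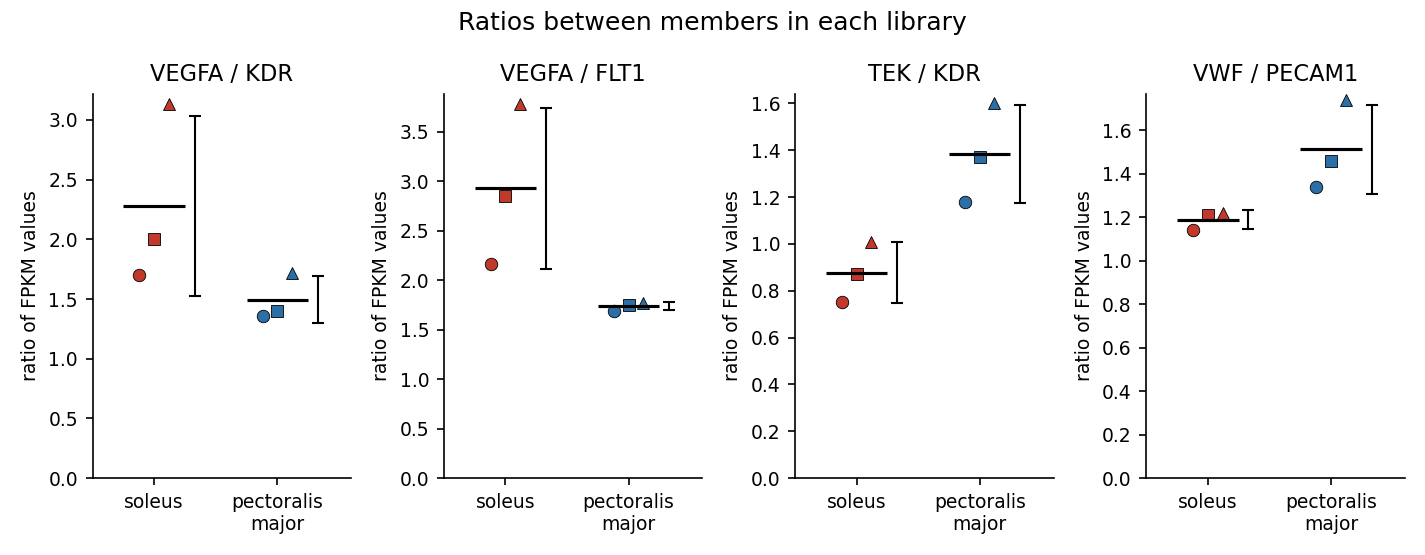
Ratios of FPKM values between members in each library (marker shapes circle, square and triangle for libraries 1 to 3), with the mean as a bar and the SD beside it (n = 3 per muscle, axes from 0). VEGFA over FLT1 is higher in all soleus libraries, TEK over KDR and VWF over PECAM1 are lower in all of them, and VEGFA over KDR overlaps.

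The wider VEGF family did not move as a block. Of 8 genes tested, 6 rose in soleus, among them the members VEGFA, KDR and FLT1, and 1 fell, PGF, with a list median of 0.94. Beside this and the list counts below, 40.0% of all genes tested were called higher and 17.4% lower. Under median-ratio scaling 21.1% were called higher. A gene at 1 FPKM or more in 1 muscle alone could meet the filter on low values, which favours its call. Listed genes that met it through soleus alone included PROX1, PPARGC1A, PPARG, MECOM and APLNR, all called higher. PGF, placental growth factor, a ligand of FLT1 that does not bind KDR (gene number 771832), had 3.3, 4.16 and 3.2 FPKM in soleus, against 12.1, 9.77 and 13.3 in pectoralis major. It was the reverse of VEGFA, with all soleus libraries below all others and a log2 difference of -1.48 ± 0.15 (SE, limma adjusted p = 0.000135), and -1.80 under median-ratio scaling. NRP1, a co-receptor that strengthens VEGFA binding to KDR (gene number 395560), had 22.9, 17.7 and 21.6 FPKM against 5.32, 5.46 and 6.18. Its log2 difference of 1.70 ± 0.14 (SE, limma adjusted p = 3.91e-05) was close in size to that of VEGFA.

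NRP2, the related co-receptor (0.93, adjusted p = 0.00548), and FLT4, the receptor of lymphatic endothelium (0.86, adjusted p = 0.007), also rose by limma, though FLT4 did not pass under quantile normalization (adjusted p = 0.0594). VEGFC, the ligand of FLT4, had 2.18 ± 0.538 FPKM in soleus, against 2.33 ± 0.544 in pectoralis major and did not pass (limma adjusted p = 0.746). VEGFD had 1.08 ± 0.557 and 0.517 ± 0.0855 FPKM and was under the filter on low values.

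All 6 tested genes of the angiopoietin and TIE list, TEK and TIE1 included, rose in soleus (list median 1.08), with 4 rising under median-ratio scaling. ANGPT2, an angiopoietin released by activated endothelium that can oppose TEK signalling in mammals, had 6.09, 3.72 and 4.12 FPKM in soleus, against 1.76, 1.71 and 0.927 in pectoralis major, a log2 difference of 1.19. PTPRB, the endothelial phosphatase that acts on TEK, had 21.7 ± 2.94 and 8.62 ± 0.745 FPKM (1.24). ANGPTL1, an angiopoietin-like gene and not an angiopoietin, had 6.66 ± 1.54 and 1.66 ± 0.444 (1.52). ANGPT4 had a log2 difference of 0.42 (limma adjusted p = 0.0426). That call was lost when soleus library 1 (0.138) or 2 (0.089) or pectoralis major library 1 (0.0617), 2 (0.082) or 3 (0.0977) was left out. It was also lost under median-ratio scaling (0.636), quantile normalization (0.261), no filter on low values (0.0729) and totals that omit the 50 most abundant genes (0.0763). ANGPT1, the main activating ligand of TEK, had only 0.169 ± 0.0626 FPKM in soleus, against 0.0666 ± 0.0161 in pectoralis major and was not tested.

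**Figure D4:**
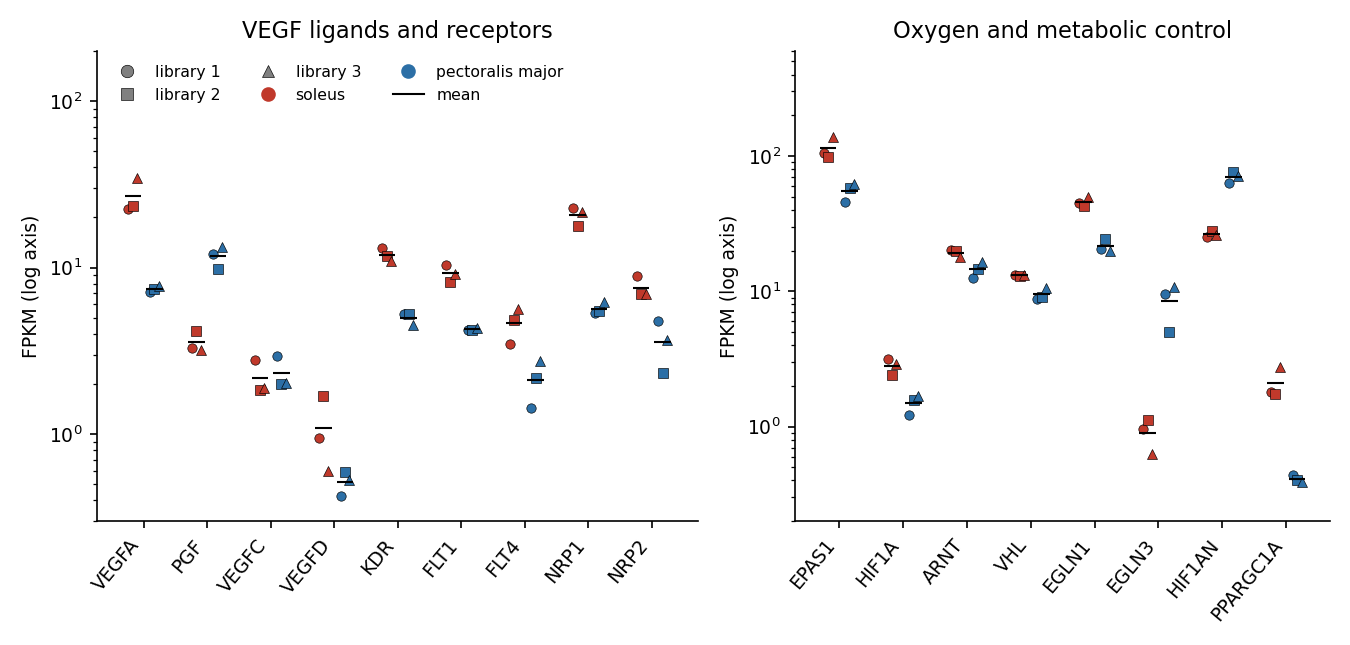
FPKM (log axis) of VEGF ligands and receptors (left) and of genes of oxygen sensing and metabolic control (right) in the 3 soleus libraries (red) and 3 pectoralis major libraries (blue), with the mean as a bar and the library number as the marker shape. VEGFA and NRP1 are higher in all soleus libraries, and PGF, EGLN3 and HIF1AN are lower in all of them.

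Genes of the endothelial surface and junctions followed the members. Of 22 tested, CDH5, PECAM1 and CLDN5 included, 21 rose in soleus (95.5%, against 40.0% of all genes tested) and 1 fell (list median 0.87). Of the 19 that are not members, 18 rose. Under median-ratio scaling 13 of the 22 rose, against 21.1% of all genes tested. The caveolar coat genes CAV1 (97.8 ± 6.29 and 33.4 ± 5.94 FPKM, log2 difference 1.53) and CAV2 (36.9 ± 4.60 and 10.9 ± 1.03, 1.67) and the water channel AQP1 (7.83 ± 1.22 and 1.5 ± 0.238, 1.82) had the largest differences. CAV1, CAV2 and AQP1 are also made by other cells, adipocytes among them. PLVAP, which forms the diaphragms of endothelial caveolae and fenestrae, had 77.2 ± 9.66 and 41.6 ± 6.99 FPKM (0.88). OCLN, the tight junction protein occludin, went the other way at a low level, with 1.38 ± 0.207 FPKM in soleus, against 2.71 ± 0.33 in pectoralis major (a log2 difference of -0.64 ± 0.13 SE, limma adjusted p = 0.00312).

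Of 20 endothelial transcription factors tested, 14 rose in soleus, 6 did not pass, and the list median was 0.70, with 8 rising under median-ratio scaling. NR2F2, a factor of venous identity, had 8.44 ± 2.26 FPKM in soleus, against 1.59 ± 0.166 in pectoralis major (1.84). EPAS1, also called HIF2A, the oxygen-regulated factor abundant in endothelium, had 106.2, 98.9 and 138.2 FPKM in soleus, against 45.7, 58.4 and 62.0 in pectoralis major (1.03). SOX7 had 8.34 ± 2.97 and 3.59 ± 1.2 FPKM (1.01), and did not pass under median-ratio scaling (adjusted p = 0.0504). The 6 that did not pass were SOX17, TAL1, LMO2, KLF2, KLF4 and MEF2C, and KLF2, which blood flow induces, had 71.4 ± 17.3 and 63.1 ± 23.7 FPKM with overlap (limma adjusted p = 0.525).

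Of 20 tested genes of endothelial signalling and vessel tone, EGFL7 and VWF included, 15 rose (list median 0.62), 14 rose with voom, and 7 rose under median-ratio scaling. LPL, the lipase that is held on the capillary wall and also made by fibres and fat cells, had 92.8 ± 25.6 FPKM in soleus, against 17.5 ± 8.86 in pectoralis major (2.42). The endothelin receptor EDNRA (9.91 ± 1.08 and 3.68 ± 0.856, 1.23) and MMRN2, a matrix protein of endothelium (14.7 ± 3.16 and 6.40 ± 0.605, 1.06), came next among genes of the list other than EGFL7 and VWF. ADM, adrenomedullin, had 36.6 ± 3.15 and 37.4 ± 4.48 FPKM without a call (limma adjusted p = 0.876), yet median-ratio scaling called it lower (difference -0.41, adjusted p = 0.0434). Of 7 Notch genes tested, 6 rose (list median 0.74), with 3 under median-ratio scaling. DLL4, the Notch ligand of tip cells and arteries, had 5.15 ± 0.644 and 1.87 ± 0.309 FPKM (1.10), JAG1 5.33 ± 0.866 and 2.63 ± 0.357 (0.80), and NOTCH2 7.57 ± 1.93 and 4.07 ± 0.682 (0.74). NOTCH2 did not pass under median-ratio scaling (adjusted p = 0.0825), and HES1, a Notch target, had 20.1 ± 6.68 and 21.5 ± 12.8 FPKM.

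Of 6 lymphatic genes tested, 5 rose, FLT4 among them (list median 0.89). PROX1 had 2.77, 1.78 and 2.00 FPKM in soleus, against 0.0542, 0.0729 and 0.162 in pectoralis major (1.53). It met the filter on low values through soleus alone. The pseudocount of 1 narrows its log2 difference, as the ratio of mean FPKM was 22.7. PROX1 is also known in slow muscle fibres. PDPN had 3.83 ± 0.59 and 1.02 ± 0.494 FPKM (1.28), LYVE1 3.00 ± 0.284 and 1.13 ± 0.378 (0.92), and STAB1 6.46 ± 0.737 and 3.68 ± 0.264 (0.67).

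Genes that control VEGFA through oxygen and metabolism were split. Of 8 tested, 6 rose and 2 fell (list median 0.53). EGLN3, a prolyl hydroxylase that marks HIF proteins for breakdown and is itself a HIF target, had 0.956, 1.12 and 0.627 FPKM in soleus, against 9.55, 5.03 and 10.8 in pectoralis major (a log2 difference of -2.27 ± 0.24 SE, limma adjusted p = 0.00016). HIF1AN, the hydroxylase that blocks HIF activity, had 25.3, 28.1 and 26.3 against 63.2, 76.0 and 71.0 FPKM (-1.36 ± 0.12 SE, limma adjusted p = 6.6e-05). Both were lower in every soleus library. EGLN1, the related hydroxylase, went the other way, with 45.7 ± 3.6 and 21.7 ± 2.36 FPKM (1.05).

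PPARGC1A, the coactivator PGC-1 alpha, which can raise VEGFA in mouse muscle, had 1.81, 1.75 and 2.74 FPKM in soleus, against 0.437, 0.404 and 0.388 in pectoralis major (1.12). All its pectoralis major values were under 1 FPKM, so PPARGC1A met the filter on low values through soleus alone. Soleus library 3 was the highest for PPARGC1A, as it was for 7 members, VEGFA among them, and for EPAS1, EGLN1 and VHL. Soleus library 1 was the highest for HIF1A and ARNT, and soleus library 2 for EGLN3 and HIF1AN. A link of PPARGC1A to VEGFA was not tested. HIF1A had 2.82 ± 0.379 and 1.49 ± 0.242 FPKM (0.62) and did not pass under quantile normalization (adjusted p = 0.0966). ARNT (0.39) and VHL (0.44) rose as deposited but not under median-ratio scaling (adjusted p = 0.862 and 0.573). The ARNT call was also lost when soleus library 1 (0.108), 2 (0.0994) or 3 (0.0571) or pectoralis major library 1 (0.103) or 2 (0.0645) was left out, with no filter on low values (0.0507) and with totals that omit the 50 most abundant genes (0.0601). The VHL call was lost when soleus library 3 was left out (0.0539).

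Of 11 tested genes that restrain vessel growth or bind its factors in the matrix, 4 rose (36.4%, near the 40.0% of all genes tested). The other 7 did not pass (list median 0.39, close to the 0.26 of all genes). The count of higher calls was 7 without pectoralis major library 3 and 8 with totals that omit mitochondrially encoded genes. SEMA3F, a semaphorin that binds NRP2, had 20.9, 22.3 and 31.8 FPKM in soleus, against 5.41, 3.13 and 3.76 in pectoralis major (2.35). SERPINF1, pigment epithelium-derived factor, had 56.5 ± 7.87 and 22.7 ± 5.38 FPKM (1.30), and THBS1, thrombospondin 1, 15.1 ± 3.28 and 5.69 ± 0.281 (1.25). The fourth was COL4A1 (0.66, limma adjusted p = 0.0299), whose libraries overlapped, and it did not pass under median-ratio scaling (0.325). SPARC, a matrix protein, had 127.6 ± 17.5 and 81.5 ± 39.7 FPKM with overlap and no call (limma adjusted p = 0.0526), but passed without pectoralis major library 3 (0.0014), with voom (0.0436), with totals that omit mitochondrially encoded genes (0.017) and with libraries of the same number paired (0.00331).

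**Figure D5:**
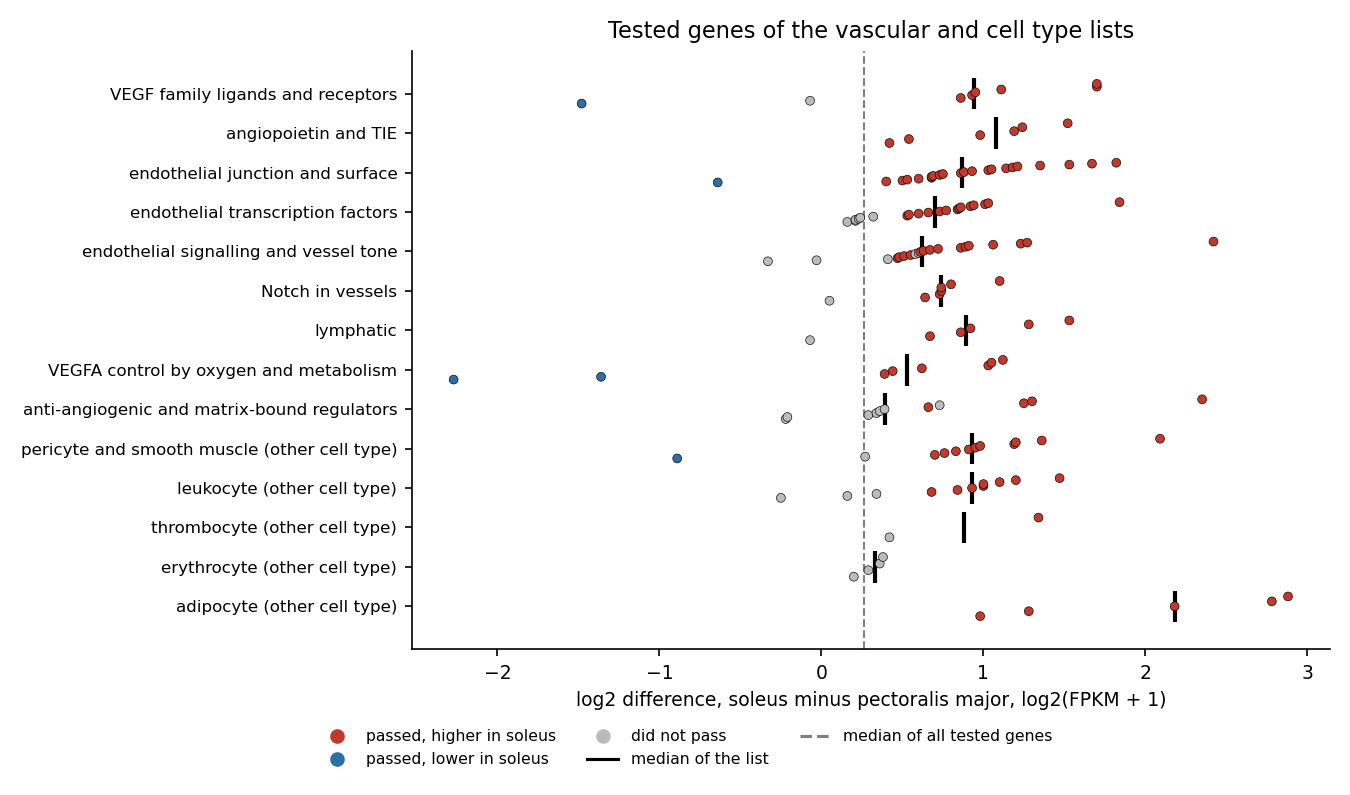
Log2 difference (soleus minus pectoralis major, log2(FPKM + 1) scale) of each tested gene in the vascular and other cell type lists, coloured by the limma call, with the median of each list (black bar) and the median of all tested genes (dashed line, 0.26). The list medians run from 0.33 for erythrocyte genes to 2.18 for adipocyte genes.

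Most pericyte and smooth muscle genes, all tested adipocyte genes and part of the leukocyte genes also rose in soleus. Of 12 tested genes of the pericyte and smooth muscle list, 10 rose and MYOCD fell (list median 0.93), with 6 rising under median-ratio scaling. The 10 include PDGFB and desmin (DES), which do not mark these cells alone. The summed FPKM of the list without DES, which muscle fibres also make, was 333.2 to 474.0 in soleus and 166.5 to 244.0 in pectoralis major. DES itself had 1825.4 ± 100.1 and 709.7 ± 46.3 FPKM (1.36). RGS5, a pericyte marker, had 219.7 ± 38.6 and 115.8 ± 11.5 FPKM (0.91), SMTN 35 ± 8.13 and 7.38 ± 1.21 (2.09), ACTA2 25.7 ± 7.11 and 10.8 ± 3.71 (1.2), and MYOCD 2.12 ± 0.576 and 4.72 ± 0.316 (-0.89). Of 11 leukocyte genes tested, which bear on PECAM1, 8 rose (list median 0.93), with 7 rising under median-ratio scaling. LY86 (1.47), SPI1 (1.2) and C1QB (1.10) had the largest differences. The T cell genes CD3E (0.34, limma adjusted p = 0.199) and CD3D (0.16, 0.485) and the B cell gene CD79B (-0.25, 0.405) did not pass. The summed FPKM was 1044.4 to 1144.5 in soleus and 539.0 to 698.7 in pectoralis major. Most of it was CD74, with 915.6 ± 59.8 and 513.5 ± 65.8 FPKM. Without CD74 the sum was 159.8 to 170.2 in soleus and 65.2 to 109.2 in pectoralis major. Of 5 adipocyte genes tested all rose (list median 2.18), with PLIN1 (2.88), CIDEC (2.78) and FABP4 (2.18) in front and a summed FPKM of 268.8 to 320.3 against 65.1 to 78.3. Of the adipocyte genes, PPARG met the filter on low values through soleus alone. The part of all these cell types in the members' values was not tested.

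Thrombocytes are the nucleated clotting cells of birds, and their mammalian counterparts, platelets, also hold VWF and PECAM1. Their markers were low. Of 8 genes in the table only ITGB3 and F13A1 were tested. F13A1, which macrophages also make, rose (1.34, limma adjusted p = 0.00216), and ITGB3 did not pass (0.42, adjusted p = 0.0683), but passed without pectoralis major library 1 (0.0333), with totals that omit mitochondrially encoded genes (0.0212) and with libraries of the same number paired (0.0124). ITGA2B, the defining integrin of these cells, had 0.624 ± 0.0777 FPKM in soleus, against 0.692 ± 0.303 in pectoralis major. The summed FPKM of the 8 genes was 8.28 to 12.7 in soleus and 4 to 5.2 in pectoralis major. Without F13A1, the most abundant of them, the sum was 4.99 to 5.91 in soleus and 2.51 to 4.11 in pectoralis major. The part of thrombocytes in the VWF and PECAM1 values was not tested. Of 4 erythrocyte genes tested, which follow the blood left in the tissue, 0 passed by limma (0 also at an unadjusted p under 0.05), 0 passed with voom, and 2 passed as higher with libraries of the same number paired. HBA1, alpha globin, had 214.4, 512.4 and 567.7 FPKM in soleus, against 227.1, 429.9 and 347.7 in pectoralis major, with wide overlap.

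The tested genes whose profiles over the 6 libraries lay closest to those of the members were found by the root mean square distance between centred log2(FPKM + 1) values among 4881 genes with a mean FPKM of at least 5. For VEGFA they were MIPEP (distance 0.108), PDHA2 (0.147), CISH (0.153), ALAS1 (0.159) and the mitochondrially encoded COX2 (0.169). For the mean of the 9 endothelial members they included NFS1 (0.041), YWHAB (0.044), PLIN2 (0.056) and FZD4 (0.060). As a description, the distances follow mainly the gap between muscles, which all these genes share.

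The deposited annotation places 56 genes in the VEGF signaling pathway, most of them general kinases and lipid enzymes downstream of the receptor, and KDR and VEGFA were the members among them. Of 40 tested, 14 rose (35%) and 9 fell (22.5%), with a median of 0.26, the same as that of all genes tested. These shares were near the background of 40.0% and 17.4%.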

How the data were processed

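The authors deposited 1 table of FPKM values for 6 libraries. The authors used Cufflinks, HISAT2, R 3.2.0 and HTSeq on build GRCg6a, per the submitters' processing notes. Other versions and the strand setting were not given in the sources used here. All 18239 gene numbers matched the GRCg7b gene table, another build, so no coordinates are given, and no sequences are printed. In 10 rows a date-like symbol was restored from the gene number.

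Within a gene, FPKM values were whole multiples of 1 fragment: whole fragments gave back 100.0% of 94897 values above 0 (relative tolerance 1e-06), which yielded library totals and gene lengths. On simulated fragments of 17835 genes, this returned all fragment numbers for 97.2% of genes.

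Tests used limma 3.58.1 in R 4.3.3 with a variance trend on log2(FPKM + 1), pseudocount 1, over all 6 libraries, and were checked on simulated data. The simulation changed few genes, in both directions, so it does not bear on how the calls depend on the scaling. Ratios, with scipy 1.17.1 in Python 3.11.15, used an exact permutation test. Alternatives were a pseudocount of 0.1, no low-value filter, a stricter filter (mean FPKM 5 or more), 4 other scalings, voom on the fragments, each library left out, and a replicate block.

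The labels number the libraries of each muscle 1 to 3. Deviations of same-numbered libraries from their muscle means correlated at r = 0.398, 0.445 and 0.367 across 9616 genes. For unlike numbers r was -0.301 to -0.128, though centring on the muscle mean ties these values to the same-numbered ones. The numbers were treated as pairs in the block fit, from the data alone.

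From each of the 15 lists, the text names the 3 called non-members with the largest difference, the most abundant gene and any call against the list's majority. Genes named beyond this were chosen after their values were seen. The members and lists were chosen with earlier results of these data known. A gene that the rule on like profiles would name is not reported here.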

Additional observations from a re-analysis of the deposited data

How the results depend on the processing

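All 10 members were called higher under 14 of 15 alternatives, the replicate block and each left-out library among them, and 7 under median-ratio scaling. Over all genes, 3844 were higher and 1670 lower as deposited. The higher calls were 1639 with a mean FPKM of 5 or more (fewer genes tested), 2026 under median-ratio scaling and 2244 under quantile normalization. The lower calls were 2837 under median-ratio scaling. Leaving out 1 library gave 3157 to 3597 higher and 1311 to 1678 lower, and the replicate block gave 4207 and 1873. The higher share of calls thus depends on the scaling. The cause was not tested.

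Of 480 list counts, 25 moved by over 1.5 times. Beside those given with each list, quantile normalization called 9 transcription factors (14 as deposited) and 9 signalling and tone genes (15) higher. A mean FPKM of 5 or more, which tests fewer genes, left 7 transcription factors, 2 Notch genes (6) and 1 lymphatic gene (5) higher. It also left 0 junction genes (1), 0 pericyte genes (1) and 1 gene of VEGFA control (2) lower, and 0 thrombocyte genes (1) higher. In signalling and tone, where 0 genes were lower as deposited, ADM was lower under median-ratio scaling and a different gene, ACE, with the replicate block (adjusted p = 0.0495). In the annotated VEGF pathway, the higher calls (14) were 6 with a mean FPKM of 5 or more and 8 under quantile normalization, and the lower calls (9) were 16 under median-ratio scaling.

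Among named genes, 11 of 1182 alternative values changed sign, all for genes that did not pass. HES1 (0.05) was -0.31 under median-ratio scaling, -0.03 with totals that omit the 50 most abundant genes, and -0.46 to 0.47 with 1 library left out. HBA1 (0.29) was -0.10 under median-ratio scaling. ACTA1 (-0.03) was 0.19 with totals that omit mitochondrially encoded genes and -0.17 to 0.07 with 1 library left out (0.04 without soleus library 3). VEGFC (-0.07) was 0.09 with totals that omit mitochondrially encoded genes and -0.20 to 0.06 with 1 library left out. The replicate block changed no call of a member.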
